A study of Mus musculus with 2 samples.

Results

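The 8 interferon regulatory factor genes measured here, Irf1, Irf2, Irf3, Irf4, Irf5, Irf7, Irf8 and Irf9, were taken by symbol from the 31053 genes of a single-cell RNA sequencing matrix, and all 8 were present. The cells were live leucocytes (CD45+) sorted from B16 tumours grown in mice. B16 is a melanoma cell line of C57BL/6 origin. The library labelled WT came from Mettl3 fl/fl Lyz2 +/+ mice without Cre and the library labelled KO, also described as METTL3 deficient, from Mettl3 fl/fl Lyz2 cre/+ mice, so both groups carried floxed Mettl3 alleles, and both were labelled as 8 weeks old. Cre driven from the Lyz2 locus acts in macrophages, monocytes and granulocytes. Mettl3 encodes the catalytic subunit of the complex that deposits N6-methyladenosine on RNA. Each genotype had 1 library, made from pooled mice, so genotype, library and mice cannot be told apart, the variation among mice is unknown and no p-value is given. Every interval below is an exact 95% interval that covers counting error only.

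Interferon regulatory factors are transcription factors that share a DNA-binding domain and bind GAAA repeats. IRF3, IRF5 and IRF7 wait in the cytoplasm and enter the nucleus once kinases downstream of nucleic acid sensors and Toll-like receptors phosphorylate them, after which they switch on interferon genes. IRF9 joins STAT2 in the complex that type I interferon activates, and Irf7 is itself a target of that complex. IRF1, induced by interferon-gamma, activates antigen presentation genes, and IRF2 competes with it for the same sites. IRF4 and IRF8 bind DNA mostly with partners such as PU.1 and BATF and direct the development of dendritic cells, macrophages, B cells and plasma cells.

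The start-site regions of the genes that carry most of the results are shown here, since interferon acts on these genes through short sequence elements. All 8 genes matched a RefSeq window of 250 bases before and 50 bases after a start site (GRCm38.p6, 11 windows, both strands searched). The motifs searched were the interferon-stimulated response element as 2 copies of GAAA with 2 bases between them, and the PU.1 and IRF composite element as GGAA and GAAA with 2 bases between them. They occurred in 3.44% and 2.72% of 32851 windows of the same length. Capitals mark the matches, and a response element can overlap a composite element. Irf7 (chr7:141266375-141266674, minus strand) is shown because its counts differed most between the libraries, and neither motif occurred in this window.
Irf7: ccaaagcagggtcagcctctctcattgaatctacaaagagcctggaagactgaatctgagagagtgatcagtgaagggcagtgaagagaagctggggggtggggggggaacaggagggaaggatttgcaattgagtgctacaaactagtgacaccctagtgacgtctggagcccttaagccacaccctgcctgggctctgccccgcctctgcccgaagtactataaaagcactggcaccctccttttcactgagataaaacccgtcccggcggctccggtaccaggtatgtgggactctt
Irf8 (chr8:120736108-120736407, plus strand) is shown because its level separated the cell classes most widely. Neither motif occurred in it.
Irf8: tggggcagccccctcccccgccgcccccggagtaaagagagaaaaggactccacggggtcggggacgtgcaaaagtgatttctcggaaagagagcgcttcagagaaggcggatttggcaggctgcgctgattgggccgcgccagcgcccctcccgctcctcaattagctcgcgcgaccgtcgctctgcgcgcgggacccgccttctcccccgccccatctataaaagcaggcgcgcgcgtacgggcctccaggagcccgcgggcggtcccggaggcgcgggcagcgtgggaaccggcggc
Irf2 (chr8:46739495-46739794, plus strand) is shown because it alone held matches, 1 to each motif, the composite element from -247 to -238 relative to the start site overlapping the response element from -241 to -232.
Irf2: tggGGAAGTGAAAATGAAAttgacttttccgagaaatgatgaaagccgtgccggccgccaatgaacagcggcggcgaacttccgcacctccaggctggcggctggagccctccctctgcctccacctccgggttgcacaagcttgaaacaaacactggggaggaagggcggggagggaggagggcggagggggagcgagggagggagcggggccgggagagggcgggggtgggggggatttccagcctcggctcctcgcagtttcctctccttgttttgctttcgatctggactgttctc
The windows of Irf1, Irf3, Irf4, Irf5 and Irf9 and the second window of Irf8 held neither. A match is a description of letters and not evidence of binding.

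The library labelled WT held 5895 barcodes with 45963969 unique molecular identifiers (UMIs, 1 per counted transcript molecule) and the library labelled KO held 8446 barcodes with 54052317. After filtering, 5405 and 7625 cells remained, with a median of 4137 and 3563 UMIs per cell. Altogether 13 barcode sequences occurred in both libraries. Mettl3 was counted at 9.05 and 10.1 UMIs per 1000000 UMIs of the cells considered (CPM) in macrophage-like cells, a log2 ratio of KO over WT of 0.16 (-0.15 to 0.47). The counts come from 3′ ends and do not show an internal deletion, so they check nothing about the label. Lyz2, of which the KO mice have 1 intact copy, was counted at 6147 and 2761 CPM. The libraries are therefore named by their labels. Lyz2, a macrophage and monocyte transcript, was also counted in CD8 T-like cells, at 1400 CPM in WT and 300.1 CPM in KO, and the part of RNA from other cells in the values of lymphoid classes was not tested.

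Cells were assigned to classes by markers that included no Irf gene, and a class is called "like" a cell type for that reason. The 12 classes with at least 50 cells in each library ranged from 94 plasmacytoid dendritic cell (DC)-like cells in WT to 2311 macrophage-like cells in KO. In the macrophage-like class the 10 macrophage markers were all detected and summed to 14879 CPM in WT and 12826 CPM in KO. All 10 were lower in KO. In the monocyte-like class the 11 monocyte markers summed to 7863 and 8165 CPM. The clusters made up different shares of the macrophage-like class in each library. A cluster led by Ch25h and Vcam1 and a cycling cluster led by Pbk and Anln held 32.3% and 18.4% of the WT cells and 22.5% and 12.2% of the KO cells. Clusters led by Nos2 and Inhba and by Spp1 and Ccl24 held 13.8% and 11.9% of the WT cells and 24.5% and 20.4% of the KO cells. The Nos2-led cluster was named macrophage-like by a small margin. Its marker score, the mean marker level relative to the highest cluster, was 0.18 for macrophages and 0.15 for monocytes. It had 5 markers of each past the naming threshold.

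Over all kept cells, Irf7 was counted at 105 CPM in WT and 211 CPM in KO, a log2 ratio of 1.01 (0.96 to 1.06). For the other 7 genes the log2 ratio lay between -0.03 for Irf8 (295 and 289 CPM) and 0.34 for Irf4 (9.58 and 12.2 CPM). Of the 96 combinations of gene and class, 23 had an interval above 0 and 6 had an interval below 0. All 29 were among the 85 combinations with at least 10 UMIs in both libraries, and of all 82168 such combinations of gene and class, mitochondrial, ribosomal and haemoglobin genes aside, 9.11% had an interval above 0 and 7.91% below it.

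**Figure D1:**
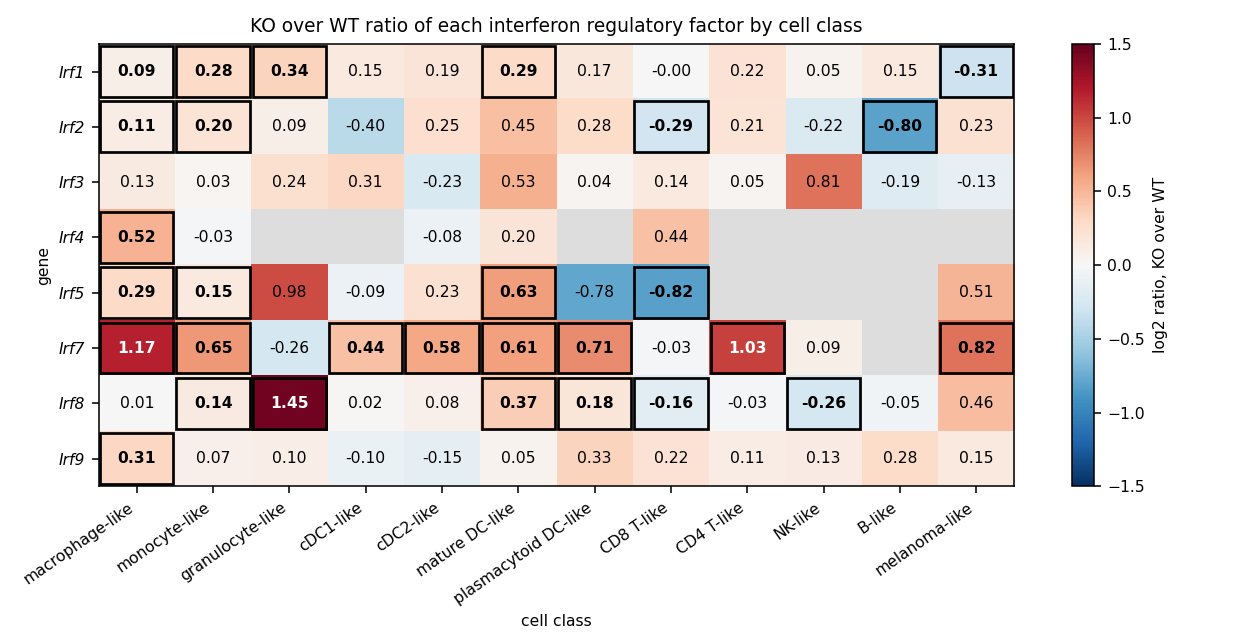
Log2 ratio of KO over WT for each of the 8 genes (rows) in each of the 12 cell classes (columns), without a pseudocount. Framed bold values have an exact 95% counting interval off 0, and grey cells have fewer than 10 UMIs in a library. Irf7 has 8 framed cells, all positive, with 1.17 in macrophage-like cells, and Irf1, Irf2, Irf5 and Irf8 have framed cells in both directions.

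Irf7 encodes the interferon-inducible factor that amplifies type I interferon production. In macrophage-like cells it was counted at 103 CPM in WT (98.5 to 108, 1803 UMIs) and 232 CPM in KO (225 to 239, 4335 UMIs), a 2.25-fold difference and a log2 ratio of 1.17 (1.09 to 1.25). In monocyte-like cells it was counted at 297 CPM in WT and 466 CPM in KO, a log2 ratio of 0.65 (0.54 to 0.76). The KO library was the higher one in both classes, and the intervals of the levels did not overlap.

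Genes that reached 50 CPM in at least 1 library, with the same genes aside, were counted as past the threshold when the libraries differed 1.5-fold with 1 CPM added to each level. In macrophage-like cells, 6 of the 8 Irf genes reached 50 CPM and 1 of them, Irf7, was past 1.5-fold, beside 2.19% of all 2829 genes at that level (1.70% in the direction of KO). In monocyte-like cells the count was again 1 of 6, Irf7, beside 3.24% of 2998 genes (2.74% in the direction of KO). The median log2 ratio of the 6 genes was 0.20 in macrophage-like and 0.17 in monocyte-like cells, against 0.0019 and 0.026 over all genes counted.

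The Irf7 difference in macrophage-like cells was present in most of their clusters. All 7 clusters had the higher level in KO, and 6 of the 7 had an interval above 0, beside 8.80% of all combinations of gene and macrophage-like cluster with at least 10 UMIs in both libraries. The Spp1-led cluster was at 125 CPM in WT and 347 CPM in KO, with a log2 ratio of 1.47 (1.26 to 1.69). The cycling Pbk-led cluster, which had the lowest levels, was at 50.2 and 112 CPM, with a ratio of 1.16. The Lyve1-led cluster, at 231 and 272 CPM, was the one whose interval included 0 (0.24, -0.17 to 0.64). With each cluster given equal weight, the log2 ratio of the class was 0.78 in place of 1.17.

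Among the 4 monocyte-like clusters, the one led by Ifit1bl1, Ifit2 and Rsad2, genes of the type I interferon response, stood apart in level. Its Irf7 was at 812 CPM in WT and 883 CPM in KO, a log2 ratio of 0.12 (-0.02 to 0.26). The cluster held 95 cells of WT and 420 of KO, or 14.6% and 23.0% of the monocyte-like cells. The other 3 had intervals above 0, beside 6.15% of all such combinations in monocyte-like clusters, with ratios of 0.75 in a cluster led by Dmkn and Vcan, 0.59 in a cluster led by Nxpe4 and Tppp3 and 1.39 in a cluster led by Ace and Adgre4, the latter from 12 and 60 UMIs. Without the interferon-led cluster the ratio of the class was 0.78, and with equal weight for each cluster it was 0.44, which is under 1.5-fold.

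**Figure D2:**
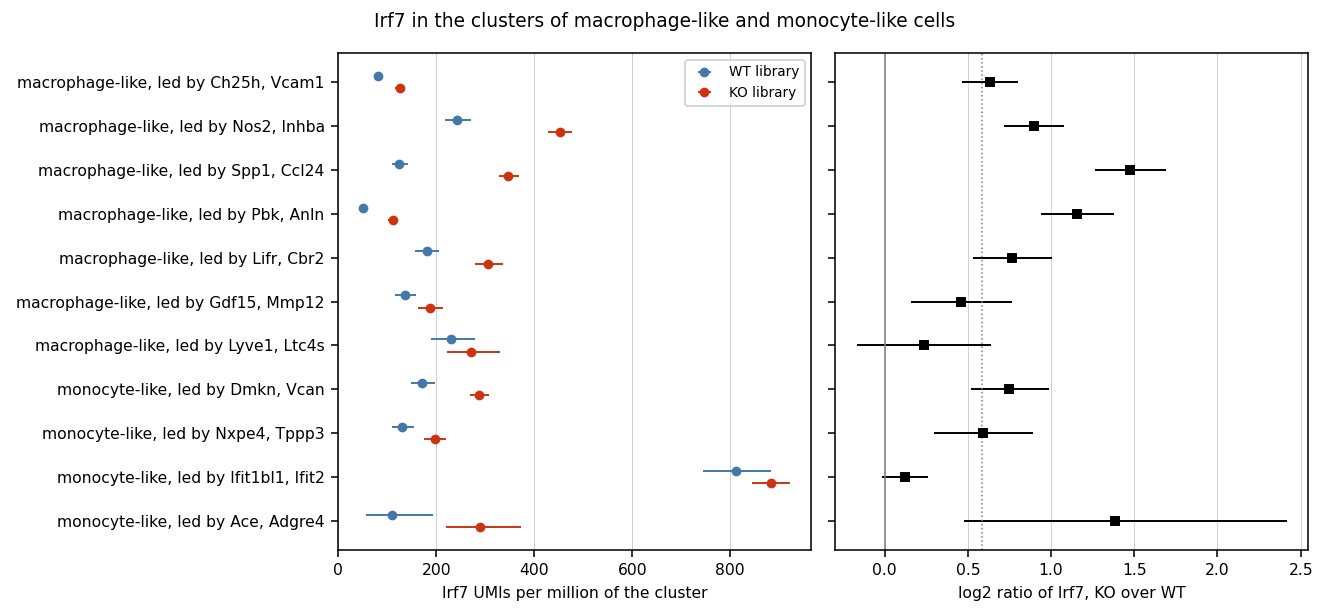
Irf7 in the 7 macrophage-like and 4 monocyte-like clusters, each named by 2 leading genes. Left, CPM of the cluster in each library with exact Poisson 95% intervals; right, log2 ratio of KO over WT with its exact interval, the dotted line marking 1.5-fold. All 11 ratios are above 0, and the Ifit1bl1-led cluster has the highest levels, 812 and 883 CPM, with a ratio of 0.12.

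The share of cells with at least 1 Irf7 UMI differed in the same direction. It was 44.2% of macrophage-like cells in WT and 56.9% in KO, at a median of 8638 and 6024 UMIs per cell. With each cell thinned to 1000 UMIs, the shares were 11.9% (10.3 to 13.6) and 21.3% (19.7 to 23.1), with 46 and 72 shallower cells left out. In monocyte-like cells the thinned shares were 18.1% and 29.7%. No class is known to lack Irf7. In melanoma-like cells, the class with the lowest level, the shares were 0.78% and 1.52% after thinning and 18.4% and 23.7% before it, at a median of 45390 and 35276 UMIs.

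Markers of monocytes were also higher in the KO macrophage-like cells. The 11 monocyte markers summed to 1194 CPM in WT, ranging from 2.75 to 371 CPM, and to 1848 CPM in KO, ranging from 4.54 to 785 CPM, with 10 of the 11 higher in KO and none at 0. The 10 macrophage markers, at 14879 and 12826 CPM in sum, were all lower in KO. The part of either marker set in the Irf7 difference was not tested. Taken over macrophage-like and monocyte-like cells together, the log2 ratio of Irf7 was 1.17.

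Outside these classes, Irf7 was higher in KO in all 4 DC-like classes by an interval above 0. It was counted at 129 and 193 CPM in cDC2-like cells (0.58, 0.31 to 0.86), at 91.8 and 124 CPM in cDC1-like cells (0.44, 0.08 to 0.80), at 63.2 and 96.6 CPM in mature DC-like cells (0.61, 0.06 to 1.19) and at 166 and 272 CPM in plasmacytoid DC-like cells (0.71, 0.28 to 1.15). The cDC1-like ratio was 1.21 after thinning. The plasmacytoid DC-like value rested on 72 and 122 UMIs and was 0.28 with cells thinned to 1000 UMIs and 0.25 as a mean over cells. The plasmacytoid DC-like class also held macrophage markers, which summed to 3853 CPM in WT and 2166 CPM in KO, and monocyte markers, at 5794 and 7035 CPM. The 11 monocyte markers summed to 862 and 1248 CPM in cDC1-like cells, with 9 higher in KO and 1 at 0 in WT, and to 2298 and 2838 CPM in cDC2-like cells, with 6 higher in KO, whereas in mature DC-like cells they summed to 297 and 171 CPM, with 1 higher in KO. In cDC2-like cells the 7 mast cell or basophil markers summed to 88.8 and 285 CPM, all higher in KO. In mature DC-like cells the 10 macrophage markers summed to 717 and 252 CPM, with 0 higher in KO. The part of these markers in the Irf7 values was not tested.

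In lymphoid and other cells the Irf7 picture was mixed. CD8 T-like cells were at 50.5 and 49.4 CPM (-0.03, -0.36 to 0.30) and natural killer (NK)-like cells at 60.4 and 64.2 CPM (0.09, -0.82 to 1.03). These 2 ratios rested on the processing, at 0.76 and 1.31 with each cell named by its own marker score, 0.49 and 1.14 after thinning and, in NK-like cells, 0.83 without the 1 cell with most Irf7 UMIs in each library. CD4 T-like cells were at 35.5 and 72.5 CPM (1.03, 0.21 to 1.93) from 16 and 58 UMIs, and the ratio was 0.36 as a mean over cells. Most of that difference lay in a small Foxp3-led cluster of 31 and 41 cells with 1 and 29 UMIs (3.81, 1.22 to 9.16), while the larger Cd4-led cluster was at 54.7 and 66.6 CPM (0.28, -0.66 to 1.29). Granulocyte-like cells were at 160 and 133 CPM (-0.26, -0.76 to 0.21), the only class besides CD8 T-like cells whose value was below 0, and the ratio was 0.24 with each cell named by its own marker score. Melanoma-like cells were at 7.64 and 13.5 CPM (0.82, 0.31 to 1.35) from 46 and 103 UMIs. Their ratio was 1.42 as a mean over cells and ran from 0.63 to 2.47 under the alternatives. B-like cells held 6 and 10 UMIs.

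IRF3, the constitutive partner of IRF7 in switching on interferon-beta, had low counts everywhere. Its level was between 23.5 CPM (mature DC-like, WT) and 82.5 CPM (NK-like, KO), and no class had an interval off 0. Macrophage-like cells were at 30.7 and 33.6 CPM (0.13, -0.04 to 0.30). However, 2 of their 7 clusters had an interval above 0, beside 8.80% of all combinations of gene and macrophage-like cluster. These were the Ch25h-led one with 190 and 211 UMIs (0.38) and the Pbk-led one with 168 and 185 UMIs (0.42). The largest ratio, 0.81 in NK-like cells, came from 14 and 36 UMIs with an interval of -0.11 to 1.82.

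Irf5 encodes the factor that links Toll-like receptors to inflammatory cytokine genes in myeloid cells. It was highest in cDC1-like cells in WT (215 CPM) and in monocyte-like cells in KO (209 CPM), and the intervals of these 2 classes overlapped in both libraries. In macrophage-like cells it was at 88.4 and 108 CPM, a log2 ratio of 0.29 (0.20 to 0.39). An interval above 0 was found in 3 of the 7 clusters, beside 8.80% of all combinations of gene and macrophage-like cluster. Monocyte-like cells, at 189 and 209 CPM, had a ratio of 0.15 (0.01 to 0.29). Mature DC-like cells were at 99.9 and 154 CPM (0.63, 0.19 to 1.08), a difference that was -0.08 with cells thinned to 1000 UMIs. CD8 T-like cells went the other way, at 26.8 and 15.2 CPM (-0.82, -1.37 to -0.28), and this value was 0.017 after thinning and 1.66 with doublets kept. The macrophage markers in the CD8 T-like class summed to 3275 CPM in WT and 1467 CPM in KO, all 10 lower in KO, and their part in the Irf5 value was not tested.

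Irf9 encodes the DNA-binding subunit of the type I interferon complex with STAT2. Macrophage-like cells were at 57.8 CPM in WT and 71.5 CPM in KO, a log2 ratio of 0.31 (0.19 to 0.43). The Nos2-led cluster was at 66.5 and 97.7 CPM (0.55, 0.20 to 0.92) and the Spp1-led cluster at 57.4 and 79.4 CPM (0.47, 0.13 to 0.82). No other of the macrophage-like clusters had an interval off 0, beside 8.80% of all combinations of gene and macrophage-like cluster above 0. Monocyte-like cells were at 106 and 112 CPM, with an interval that included 0. Granulocyte-like cells had the highest level of the 12 classes in both libraries, 164 and 175 CPM, which in KO overlapped that of plasmacytoid DC-like cells.

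Irf1 and Irf2, the competing activator and repressor, both had small ratios over the macrophage-like class and larger ones in single clusters. Irf1 was at 124 and 132 CPM there (0.09, 0.00 to 0.17) and Irf2 at 95.03 and 102 CPM (0.11, 0.01 to 0.20), a ratio that was -0.0024 with 15 principal components. In the Nos2-led cluster Irf1 was at 89.4 and 138 CPM (0.63, 0.32 to 0.94) and Irf2 at 86.4 and 124 CPM (0.52, 0.21 to 0.84), and in the Spp1-led cluster Irf1 was at 90.6 and 122 CPM (0.43, 0.16 to 0.70). No other macrophage-like cluster had an interval off 0 for either gene, beside 8.80% of all combinations of gene and macrophage-like cluster above 0. In monocyte-like cells Irf1 was at 269 and 328 CPM (0.28, 0.17 to 0.40) and Irf2 at 166 and 190 CPM (0.20, 0.05 to 0.35). For Irf1 the one monocyte-like cluster with an interval above 0 was the Dmkn-led one, at 312 and 425 CPM (0.45, 0.28 to 0.63), and the interferon-led cluster was at 273 and 257 CPM.

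Across classes, Irf1 was highest in plasmacytoid DC-like (344 and 388 CPM), granulocyte-like (316 and 399 CPM), mature DC-like (295 and 360 CPM) and monocyte-like cells, neighbours whose intervals overlapped in each library. Those 4 classes stood above the remaining 8 in both libraries. Melanoma-like cells were lowest and were the single class in which Irf1 was lower in KO by its interval, at 41.5 and 33.4 CPM (-0.31, -0.57 to -0.06), a ratio that was 0.97 after thinning. Irf2 was lower in KO in CD8 T-like cells, at 102 and 83.6 CPM (-0.29, -0.53 to -0.04), where the ratio was -0.0045 with doublets kept and -0.036 as a mean over cells, and in B-like cells, at 222 and 128 CPM (-0.80, -1.58 to -0.07) from 58 and 22 UMIs.

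Irf8 encodes the lineage factor of cDC1, plasmacytoid DCs and monocytes. Its level spanned a wide range across classes. In WT it was 2651 CPM in plasmacytoid DC-like cells, 2023 CPM in cDC1-like, 745 CPM in NK-like and 695 CPM in mature DC-like cells, 372 CPM in B-like, 309 CPM in monocyte-like, 248 CPM in CD8 T-like and 240 CPM in macrophage-like cells, and 131 CPM or less in the other 4 classes. In KO the first 4 were plasmacytoid DC-like (3008 CPM), cDC1-like (2049 CPM), mature DC-like (896 CPM) and NK-like cells (621 CPM). Plasmacytoid DC-like and cDC1-like cells were first and second in both libraries with intervals that did not overlap, and NK-like and mature DC-like cells overlapped in WT. Melanoma-like cells were lowest, at 5.81 and 7.99 CPM.

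In macrophage-like cells Irf8 was at 240 CPM (233 to 248) in WT and 242 CPM (235 to 249) in KO, a log2 ratio of 0.01 (-0.05 to 0.07) from 4200 and 4523 UMIs. Of all combinations of gene and macrophage-like cluster with at least 10 UMIs in both libraries, 8.80% had an interval above 0 and 5.67% below it. For Irf8, of the 7 clusters, the Lifr-led one had an interval above 0, at 170 and 221 CPM (0.38), and the Lyve1-led one an interval below 0, at 302 and 221 CPM (-0.45). In the latter, 63 of the 144 WT UMIs came from 1 cell, and without the top cell of each library the ratio was 0.12. The monocyte-like class, at 309 and 340 CPM (0.14, 0.03 to 0.25), joined clusters whose ratios differed in sign. The Dmkn-led cluster was at 276 and 399 CPM (0.53, 0.35 to 0.72), whereas the Nxpe4-led cluster was at 304 and 246 CPM (-0.31, -0.52 to -0.09). Of all such combinations in monocyte-like clusters, 6.15% had an interval above 0 and 4.83% below it.

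Irf8 was also higher in KO in mature DC-like cells (0.37, 0.20 to 0.54) and in plasmacytoid DC-like cells (0.18, 0.07 to 0.30), ratios that were 0.10 and 0.060 after thinning. In cDC1-like cells, at 2023 and 2049 CPM, the ratio was 0.02 (-0.06 to 0.10). Granulocyte-like cells were at 25.9 and 70.8 CPM (1.45, 0.60 to 2.30), from 26 and 25 UMIs, a ratio that ran from 0.56 with each cell named by its own marker score, under 1.5-fold, to 2.63 after thinning, and the share of these cells with a UMI was 1.17% and 6.58% after thinning, with 162 and 142 shallower cells left out. In this class mast cell or basophil markers summed to 46.9 and 297 CPM, melanoma markers to 160 and 294 CPM and macrophage markers to 1548 and 894 CPM. Their part in the Irf8 value was not tested. In melanoma-like cells, which are not of a blood lineage, the thinned share was 2.33% (0.48 to 6.65) and 1.52% (0.32 to 4.39), and these intervals overlapped those of the granulocyte-like shares, 0.43 to 2.53 and 3.20 to 11.8. Irf8 was lower in KO in NK-like cells (-0.26, upper bound just under 0), where the ratio was 0.36 after thinning and 0.28 as a mean over cells. In these cells 1 cell held 44 of the 222 WT UMIs and 1 cell 16 of the 271 KO UMIs. The cDC1 markers in the NK-like class summed to 265 CPM in WT and 68.8 CPM in KO, and their part was not tested. In CD8 T-like cells Irf8 was also lower in KO (-0.16, -0.31 to -0.01), where the ratio was 0.54 with doublets kept.

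Irf4 encodes the factor that plasma cells, activated T cells and type 2 DCs need. Its counts were low, at most 54.0 CPM in any of the 12 classes, with B-like (53.7 and 52.2 CPM), cDC2-like (49.2 and 46.4 CPM) and mature DC-like cells (47.0 and 54.0 CPM) highest and overlapping in both libraries. Granulocyte-like cells held 0 UMIs in each library, for which the floor of 3 counts is 2.99 and 8.49 CPM. Macrophage-like cells were at 4.24 and 6.10 CPM (0.52, 0.09 to 0.97) from 74 and 114 UMIs, and the ratio was 0.038 after thinning. Monocyte-like cells were at 11.6 and 11.3 CPM and CD8 T-like cells at 17.3 and 23.5 CPM (0.44, -0.09 to 0.97), a ratio that was -0.080 with doublets kept.

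**Figure D3:**
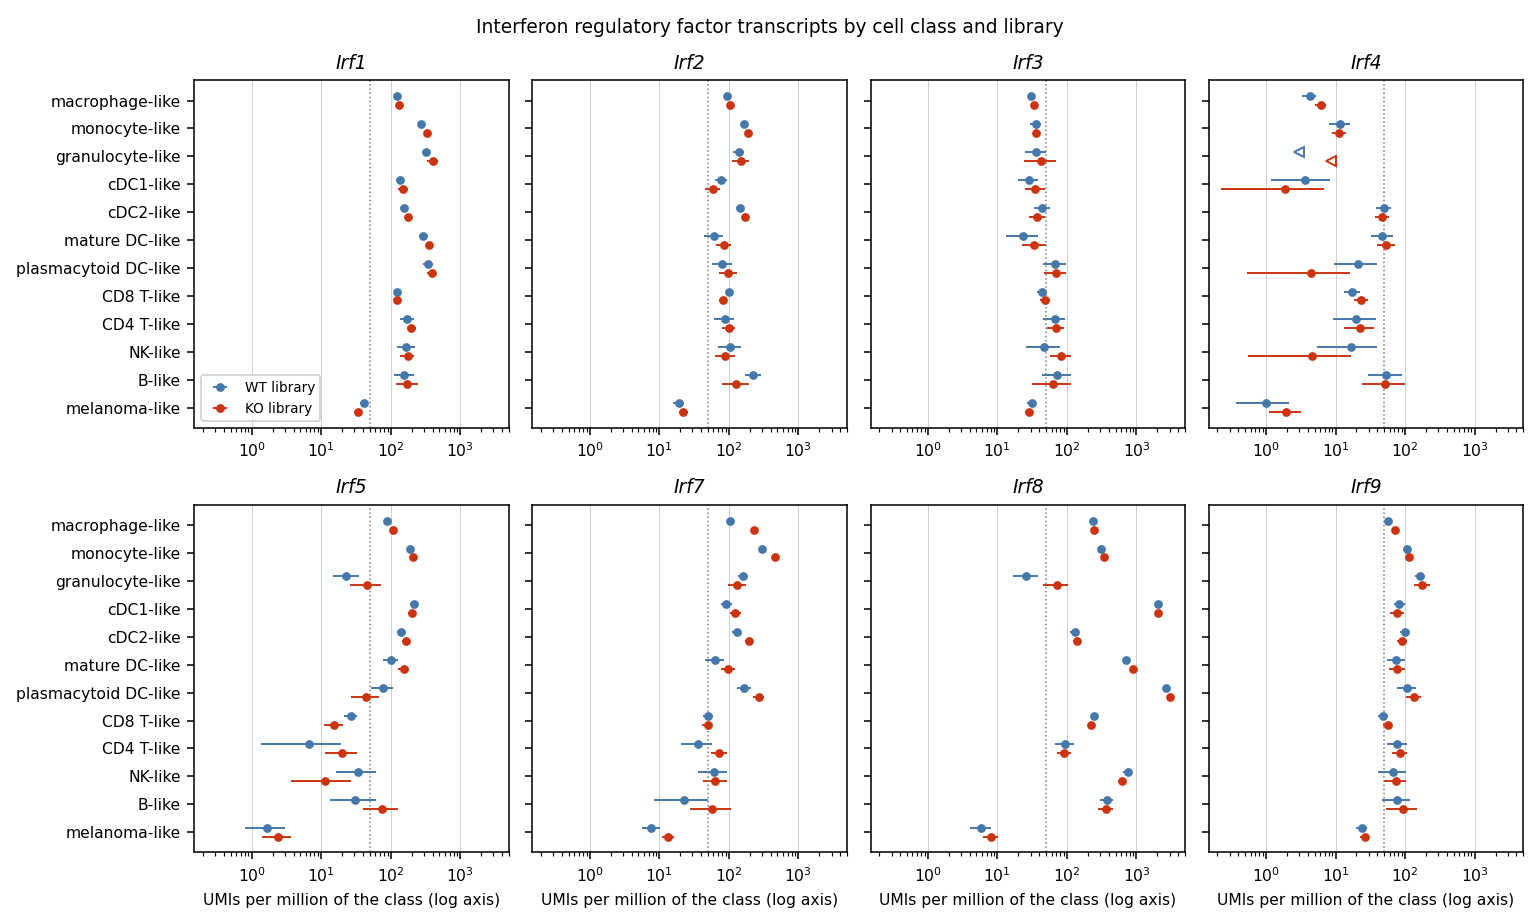
CPM of the class (log axis) of the 8 genes in 12 cell classes of each library, with exact Poisson 95% intervals. Open triangles stand at the floor of 3 counts for a class with 0 UMIs, and the dotted line is 50 CPM. Irf8 runs from 5.81 CPM in melanoma-like to 3008 CPM in plasmacytoid DC-like cells, Irf3 stays between 23.5 and 82.5 CPM, and the macrophage-like points of Irf7 lie at 103 and 232 CPM.

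The 2 CD8 T-like clusters differed from each other in the same direction in both libraries. The CD8 T-like cluster led by Nrgn and Rgs16, with Gzmb and Pdcd1 among its 10 leading genes, had Irf8 at 296 and 270 CPM and Irf4 at 19.6 and 28.0 CPM. The CD8 T-like cluster led by Cd8b1 and Tcf7 had Irf8 at 45.9 and 55.6 CPM and Irf4 at 7.91 and 7.73 CPM, and its Irf1, at 236 and 238 CPM, stood above the 94.1 and 87.6 CPM of the Nrgn-led cluster. Irf4 was at 34.0 and 38.4 CPM in the Foxp3-led CD4 T-like cluster and at 10.9 and 9.19 CPM in the Cd4-led one, from 3 to 14 UMIs each. Irf8 in these 2 clusters went in opposite directions, at 68.0 and 165 CPM in the Foxp3-led (1.27, 0.37 to 2.30; 12 and 60 UMIs) and 109 and 29.9 CPM in the Cd4-led cluster (-1.87, -2.94 to -0.89; 30 and 13 UMIs). Of the 30, 14 came from 1 cell, and without the top cell of each library the Cd4-led ratio was -1.13. The CD4 T-like class as a whole was at 93.2 and 91.3 CPM.

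In the remaining classes, the count of Irf genes past 1.5-fold was read against the share of all genes, which differed widely. It was 0 of 6 in cDC1-like cells (5.61% of all genes at 50 CPM), 0 of 6 in cDC2-like cells (4.19%) and 0 of 5 in CD8 T-like cells (5.56%). It was 2 of 7 in mature DC-like cells, Irf5 and Irf7, beside 8.57%. Irf8 alone of 5 passed in granulocyte-like cells (17.9%), where the median ratio over all genes was itself 0.12, and Irf3 alone of 6 in NK-like cells (23.0%). In CD4 T-like cells Irf7 alone of 6 was past the threshold, toward KO, beside 7.04% of genes in that direction and 431 of 3308 genes in either. Irf7 and Irf5, in opposite directions, passed of 7 in plasmacytoid DC-like cells (19.4%). Irf2, Irf5 and Irf7 passed of 8 in B-like cells (34.1%), a share near that of all genes at these counts. In melanoma-like cells no Irf gene reached 50 CPM.

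The genes around the Irf genes in the pathway were counted on 6 lists. In macrophage-like cells 9 of 17 type I interferon targets at 50 CPM or more were past 1.5-fold, all higher in KO, beside 1.70% of all genes in that direction. Their median log2 ratio was 0.64 against 0.0019 over all genes. Isg15, a ubiquitin-like modifier, was at 200 and 440 CPM (1.14, 1.08 to 1.20). Rsad2, which encodes the antiviral enzyme viperin, was at 78.8 and 167 CPM (1.08) and Oasl1, which restrains Irf7 translation, at 33.8 and 75.2 CPM (1.16). The most abundant members had smaller ratios, with Ifi27l2a at 1602 and 2675 CPM (0.74), Ly6e at 943 and 1153 CPM (0.29) and Bst2 at 612 and 730 CPM (0.26).

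None of the 14 interferon-gamma targets at that level was past 1.5-fold in macrophage-like cells, where their median was 0.12. Cd274, which encodes PD-L1, was at 84.0 and 115 CPM (0.45, 0.35 to 0.55), Irgm1 at 76.0 and 104 CPM (0.45) and the peptide transporter gene Tap1 at 156 and 207 CPM (0.41). B2m, H2-D1 and H2-K1, the class I antigen presentation genes, had ratios of 0.11, 0.14 and 0.19. All of these intervals lay above 0, and none reached 1.5-fold.

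Receptors and JAK-STAT genes counted 0 of 11 past 1.5-fold, with a median of 0.08. Stat2, the partner of IRF9, was nearest, at 60.1 and 89.5 CPM (0.57, 0.46 to 0.69), and the feedback inhibitors Socs3 and Socs1 followed at 0.37 and 0.32, whereas Stat3 at 109 and 125 CPM (0.20) and Jak1 at 122 and 119 CPM (-0.04). Sensors and kinases counted 0 of 4, with Myd88, the Toll-like receptor adaptor, at 82.1 and 104 CPM (0.34), Tmem173, which encodes STING, at 56.6 and 62.2 CPM (0.14), Irak1 at 59.2 and 57.8 CPM (-0.03) and Unc93b1 at 460 and 450 CPM (-0.03). Partners of IRF2, IRF4 and IRF8 counted 0 of 5. Spi1, which encodes PU.1, was at 315 and 329 CPM (0.06), Irf2bp2 at 233 and 253 CPM (0.12), Batf3 at 61.9 and 63.1 CPM (0.03) and Irf2bpl at 49.98 and 56.9 CPM (0.19).

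Interferon transcripts themselves were few in macrophage-like and monocyte-like cells. The 21 interferon genes together held 58 UMIs in WT and 66 in KO among macrophage-like cells, with Ifnb1 at 28 and 31 UMIs, Ifng at 24 and 22 and Ifnab at 5 and 11, and none reached 50 CPM. In monocyte-like cells the interferon genes held 4 and 24 UMIs, of which Ifnb1 was 1 and 17 (2.84, 0.17 to 8.22). In the T-like and NK-like classes Ifng alone of the 21 reached 50 CPM, at 222 and 314 CPM in CD8 T-like cells (0.50, 0.36 to 0.64), 31.1 and 82.5 CPM in CD4 T-like cells (1.41, 0.56 to 2.36; 14 and 66 UMIs) and 158 and 128 CPM in NK-like cells (-0.30, -0.88 to 0.29).

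In monocyte-like cells 11 of 24 type I interferon targets were past 1.5-fold, all higher in KO, with a median of 0.56. So were 6 of 19 interferon-gamma targets with a median of 0.40, among them Cd274 at 80.2 and 139 CPM (0.79). Of all genes in that class, 2.74% were past 1.5-fold in the direction of KO, and the median was 0.026. Receptors and JAK-STAT genes counted 1 of 15, Socs1 at 106 and 160.0 CPM, sensors and kinases 0 of 9 and partners 0 of 6. Isg15 was at 540 and 1058 CPM (0.97) and Rsad2 at 255 and 511 CPM (1.002). In plasmacytoid DC-like cells, 13 of 16 type I targets were past 1.5-fold in the direction of KO with a median of 1.66, beside 10.6% of all genes in that direction. Isg15 was at 50.8 and 361 CPM there (2.83, 2.18 to 3.54) and Rsad2 at 13.9 and 223 CPM (4.01), from 6 and 100 UMIs. The plasmacytoid DC-like class held 94 and 110 cells, and this median was not rerun under the alternatives. Monocyte markers summed to 5794 and 7035 CPM and macrophage markers to 3853 and 2166 CPM in this class. Their part in the target values was not tested.

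The type I targets were not higher in KO in every class. Medians of the targets at 50 CPM or more were 0.78 in cDC1-like, 0.51 in cDC2-like, 0.51 in mature DC-like and 0.34 in CD4 T-like cells. In melanoma-like cells, where 3 targets reached that level, the median was 0.45. They were 0.10 in granulocyte-like, 0.03 in B-like and -0.03 in CD8 T-like cells. In NK-like cells 6 of 12 targets were past 1.5-fold toward WT and 1 toward KO, with a median of -0.70. Of all 3327 genes in that class, 367 were past it toward WT and 399 toward KO, and the class had Irf7 at 60.4 and 64.2 CPM. Macrophage and cDC1 transcripts were lower in the same KO class, with the 10 macrophage markers at 953 and 497 CPM in sum (all 10 lower), the 7 cDC1 markers at 265 and 68.8 CPM (all 7 lower, 4 of them at 0 in KO) and Lyz2 at 896 and 68.8 CPM, beside monocyte markers at 1524 and 1455 CPM, and their part in the target values was not tested.

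**Figure D4:**
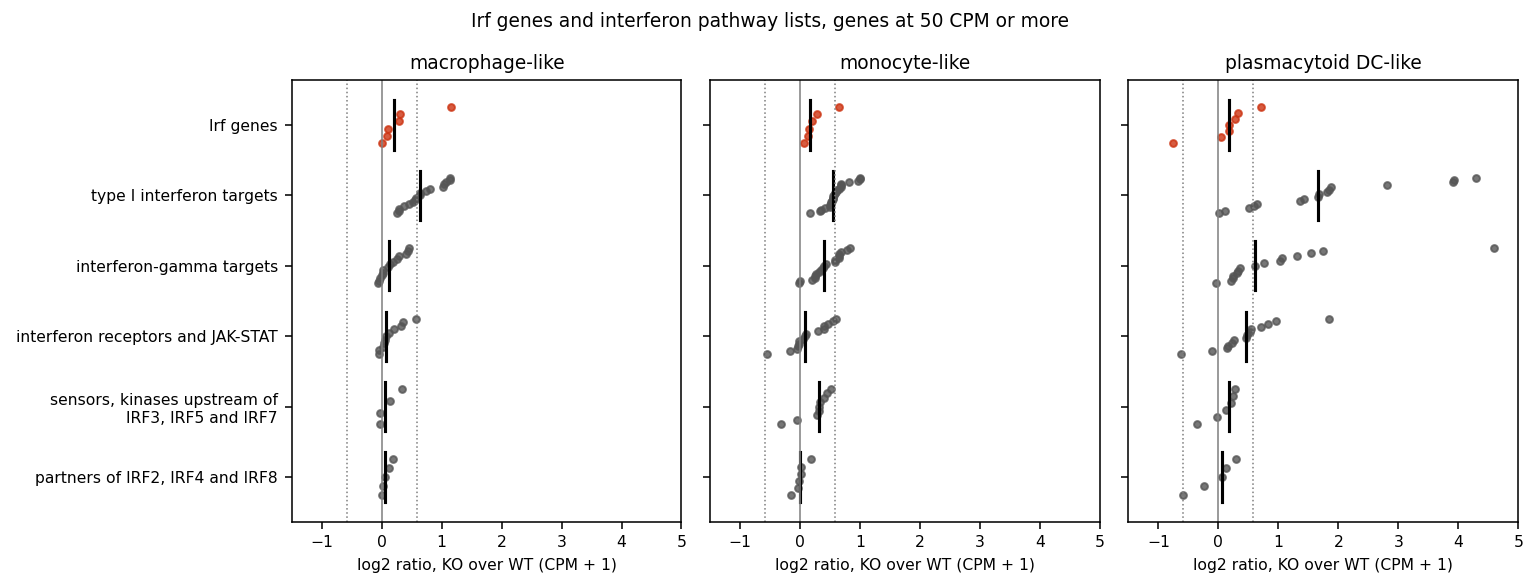
Log2 ratio of KO over WT, with 1 CPM added to each level, of Irf genes and of 5 pathway lists in 3 cell classes, for genes that reached 50 CPM. Each point is 1 gene, black bars are medians and dotted lines mark 1.5-fold. The medians of the type I interferon targets are 0.64, 0.56 and 1.66, and Irf7 is the right-most Irf point in each class.

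Genes whose levels ran most like those of each Irf gene were found by Pearson correlation of log2(CPM + 1) over 24 points, the 12 classes of both libraries, among 6273 genes. The points share libraries and cell classes and are not independent, so r is a description. Irf7 ran most like Fes (0.92), Ifi204 (0.92) and Rnh1 (0.91). Irf5 ran with the class II antigen presentation genes H2-Aa (0.93), H2-Ab1 (0.92) and Cd74 (0.92). Irf9 ran with Trim30d (0.94), Ier5 (0.93) and Zfp36 (0.93), and Irf1 with Ier5 (0.92), Irf9 (0.90) and St8sia4 (0.89). Irf8 ran with Coro2a (0.85), H2-M3 (0.84) and Cd47 (0.84), Irf2 with Pxk (0.91), 9930111J21Rik2 (0.89) and Sp100 (0.89), Irf3 with S1pr4 (0.90), Zcchc7 (0.89) and Ctcf (0.89) and Irf4 with Clec2i (0.82), Cd1d1 (0.81) and Appl1 (0.81). Between Irf genes, r was 0.78 for Irf5 with Irf7, 0.77 for Irf7 with Irf9 and -0.03 for Irf3 with Irf7.

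By GENCODE annotation (GRCm38), Irf7 spans 141262706 to 141266481 on the minus strand of chromosome 7, Irf8 spans 120736358 to 120756694 on chromosome 8, Irf1 spans 53770014 to 53778374 on chromosome 11 and Irf9 spans 55603571 to 55610030 on chromosome 14. The whole span of Irf8 lies in the same-strand annotated gene Gm20388, which held 0 UMIs in both libraries. The first 123 bases of Irf9 overlap the end of Rnf31 on the same strand, so 3′ reads of Rnf31 can fall there, and Rnf31 held 759 and 1169 UMIs. The end of Irf7 overlaps Phrf1 on the opposite strand over 45 bases.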

How the data were processed

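Live CD45+ cells were profiled with Chromium 3′ chemistry (version 3), 1 library per genotype. The authors aligned reads and counted UMIs with Cell Ranger 4.0.0 (mm10), and the deposited values are raw counts per gene and barcode.

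Here, barcodes with at least 200 genes and at most 10% mitochondrial UMIs were kept, and Scrublet removed 256 (WT) and 532 (KO) cells at 0.8% per 1000 cells, since its own threshold marked 1 in each library. Cells were clustered with scanpy 1.11.5 and leidenalg 0.10.2 (2000 variable genes, 30 components, 20 neighbours, resolution 2), with the Irf genes and all list genes left out. The 33 clusters were named by markers, with thresholds set after the data were seen, and mixed clusters (307 WT and 263 KO cells) and unnamed clusters (501 and 782) stayed out of the classes. The UMIs of each class were added up by library and are expressed here as CPM, scaled to a class total of 1000000. Ratios carry exact conditional binomial intervals, levels exact Poisson intervals and shares Clopper-Pearson intervals, all 95%. With 1 library per genotype no test was made. A floor is 3 counts.

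The members and lists were chosen with earlier results of these data known. Of each list the text names the 3 most abundant genes and the 3 with the largest ratio in macrophage-like cells. Values of these genes in other classes, and of clusters, were chosen after they were seen. Usp18 is on 2 lists, 115 of the 118 list entries matched a gene symbol of the matrix, and 1 gene that the rule picks is not reported here. Alternatives covered cell filters, doublets, clustering, cell naming, thinning, weighting, thresholds and pseudocounts.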

Additional observations from a re-analysis of the deposited data

Results flagged for a closer look

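For 4 genes, one cell class had a counting interval above 0 and another an interval below 0. These differences between classes were not tested, since each genotype had 1 library. The log2 ratio of KO over WT of Irf1 was 0.34 in granulocyte-like and -0.31 in melanoma-like cells. The first was -0.14 with a stricter cell filter and -0.42 at resolution 1, and the second was 0.97 with cells thinned to 1000 UMIs. That of Irf2 was 0.20 in monocyte-like and -0.80 in B-like cells. That of Irf5 was 0.63 in mature DC-like and -0.82 in CD8 T-like cells, and both values changed sign with cells thinned to 1000 UMIs. That of Irf8 was 1.45 in granulocyte-like cells, from 26 and 25 UMIs, and 0.56 to 2.63 under the alternatives, and -0.26 in NK-like cells, the latter 0.36 after thinning and 0.28 as a mean over cells.

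A signal also appeared outside the classes compared. The plasma-like cluster had too few cells for a comparison, 11 and 35, and held Irf4 at 161 CPM in WT and 209 CPM in KO, from 26 and 89 UMIs, above every class compared.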

How the results depend on the processing

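No paired analysis was possible because each genotype had 1 library, and for the same reason no replicate could be left out. The log2 ratio of Irf7 in macrophage-like cells, 1.17, was above 0 under every alternative run. It was 1.08 with a stricter cell filter, 1.04 with doublets kept, 0.97 with 15 principal components, 1.03 with each cell named by its own marker score, 1.05 with cells thinned to 1000 UMIs and 0.78 with equal weight for each cluster. Irf8 there, 0.01, was 0.086 with the stricter filter, -0.057 with thinning and 0.10 with monocyte-like cells added. Irf1 there, 0.09, was 0.17 with doublets kept and 0.35 with monocyte-like cells added. The count of Irf genes past 1.5-fold in monocyte-like cells, 1, was 0 with equal weight for each cluster and 0 at a threshold of 2-fold, while that in macrophage-like cells was 1 under every alternative. The number of Irf genes with the same highest class in both libraries, 3, was 6 with the stricter filter, 5 at resolution 1 and 5 with cells named by marker score. The median of the type I interferon targets in macrophage-like cells, 0.64, was 0.54 with 15 components, 0.43 with equal cluster weight and 0.85 with the interferon-led cluster counted as macrophage-like. Irf5 changed sign in mature DC-like cells with thinning (-0.082) and in CD8 T-like cells with thinning (0.017) and with doublets kept (1.66). The causes were not tested. Genes past 1.5-fold numbered 62 in macrophage-like and 97 in monocyte-like cells, and 165 and 354 at a floor of 10 CPM, 445 and 1596 with no floor, and 19 and 11 at 2-fold. Joining macrophage-like and monocyte-like cells, moving or leaving out the interferon-led cluster, and leaving out the top cell of each library within a cluster, were chosen after seeing the data. With 15 components the cDC1-like and plasmacytoid DC-like classes gave no value, and at resolution 1 the CD4 and CD8 T-like classes gave none. Few UMIs per class limit what can be seen of Irf3, Irf4 and Irf5 in lymphoid cells.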
